A study of Homo sapiens with 2 samples.

Results

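The calcium pumps are the P-type ATPases that move calcium ions out of the cytosol, and they form a family of 9 human genes. The family was examined in SBC-3, an established small-cell lung cancer (SCLC) cell line, as 9 of the 19061 genes that had a named probe. The genes were found as the non-control spots whose RefSeq accession is paired with ATP2A1, ATP2A2, ATP2A3, ATP2B1, ATP2B2, ATP2B3, ATP2B4, ATP2C1 or ATP2C2, which gave 18 probes and 37 spots. ATP2B4 was chosen by its own measured values on these arrays, a rise in #1 siHOTAIR-transfected cells, so its difference is given as a description and supports nothing. Gene expression had been measured on 2 one-colour arrays. One array held RNA of cells transfected with the siRNA #1 siHOTAIR, directed against the long noncoding RNA HOTAIR, and the other held RNA of control cells transfected with siGFP, directed against a gene that the cells do not have. No other treatment is given in the labels for either, and labelled cRNA was made from 0.05 ug of RNA in both. No replicate array existed for either condition, no test was made, and the siRNA cannot be told apart from the culture or the array.

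The sarco/endoplasmic reticulum pumps (SERCA, ATP2A genes) fill the calcium store of the endoplasmic reticulum, the plasma membrane pumps (PMCA, ATP2B genes) expel calcium from the cell and are stimulated by calmodulin, and the secretory pathway pumps (SPCA, ATP2C genes) load the Golgi apparatus with calcium and manganese. Together they set the low resting calcium level against which signals through release channels and entry channels are read. Other members are largely restricted to tissues such as muscle, nerve, blood or glands, whereas SERCA2 (ATP2A2), PMCA1 (ATP2B1), PMCA4 (ATP2B4) and SPCA1 (ATP2C1) are made in most cells. Transcripts were measured here, and neither the proteins nor calcium itself.

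The signal of a spot is the processed signal of the scanner software, its brightness after background subtraction, in arbitrary units. For some dim spots it nearly equalled the software's own error estimate, as for ATP2C2 (9.14 with an error of 9.16 for #1 siHOTAIR). Such values are not read as measured brightness. The signal was scaled by the 75th percentile of all non-control spots (650 for #1 siHOTAIR and 630 for siGFP). A log2 ratio is the difference of these scaled log2 signals, #1 siHOTAIR minus siGFP, and signals of different probes were not set against each other because each probe binds its target differently. A probe counted as measured on an array if 50% or more of its spots stood well above background there. It was compared if this held in 1 or both conditions, as for 24117 of 42402 probes. The measurement SD comes from probes with 10 spots and covers error within the arrays, not between cultures. Over the probes measured on both arrays the median log2 ratio was 0.03. Over those measured on neither it was 0.34, so ratios between such dim signals were offset upwards. HOTAIR, the target of the siRNA, had 1 spot with a signal of 108 against 244, which was 2.34-fold lower in #1 siHOTAIR-transfected cells (log2 ratio -1.22, measurement SD 0.13).

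Of the neuroendocrine markers of SCLC, 4 of 7 were compared. NEUROD1 (213 against 372) and DLL3 (679 against 570) were measured on both arrays, CHGA (72.2 against 10.2) and NCAM1 (25.5 against 7.20) on the #1 siHOTAIR array alone, and INSM1 and SYP on neither. CHGA was at least 2.44-fold higher, measured against the lowest signal well above background on the other array. For NCAM1 the same bound was 0.86-fold, so no rise can be given. Its 2 spots on the #1 siHOTAIR array lay far apart (SD 2.00 in log2), and its other probes were measured on neither array. Among the non-neuroendocrine markers YAP1 and REST were measured on both arrays and POU2F3 on neither. Of markers of other cells, the fibroblast collagens COL1A1 (832 against 414) and COL1A2 (3758 against 3741), the leukocyte gene PTPRC (106 against 61.0 on its brightest probe) and the muscle gene DES (691 against 617) were measured on both arrays, and HBB, DCN, LUM, PDGFRB, MYH7 and CKM on neither. The part of these differences in the pump signals was not tested.

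ATP2B4 lies on the forward strand of chromosome 1. The 250 bases before its start are shown because they are the sequence next to the member with the largest difference, with those of ATP2B3 beside them as the other plasma membrane pump with 1 listed start and a probe measured on both arrays. They are from the RefSeq promoter table of GRCh38.p14, at chr1:203626582-203626831 on the + strand and chrX:153517392-153517641 on the + strand, 5′ to 3′, and capitals mark GGGCGG (a GC box) or its reverse complement CCGCCC.
ATP2B4: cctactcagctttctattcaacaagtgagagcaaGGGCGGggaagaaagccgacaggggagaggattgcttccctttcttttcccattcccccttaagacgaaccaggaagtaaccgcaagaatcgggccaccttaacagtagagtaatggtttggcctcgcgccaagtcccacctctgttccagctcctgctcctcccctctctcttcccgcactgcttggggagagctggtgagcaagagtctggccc
ATP2B3: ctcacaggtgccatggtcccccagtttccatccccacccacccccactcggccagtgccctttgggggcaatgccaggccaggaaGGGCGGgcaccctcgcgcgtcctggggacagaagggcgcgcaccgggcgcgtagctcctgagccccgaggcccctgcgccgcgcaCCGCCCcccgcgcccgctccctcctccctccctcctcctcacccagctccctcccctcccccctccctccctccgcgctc
The ATP2B4 window held 8 CpG dinucleotides at a GC content of 55.6%, and the ATP2B3 window held 20 at 75.2%. The median over 35116 windows of this length was 11 CpG dinucleotides and 58% GC, and 43.7% of windows had fewer CpG dinucleotides than that of ATP2B4. GGGCGG, searched on both strands, occurred 1 time before ATP2B4 and 2 times before ATP2B3, and in 42.6% of all windows. Neither window held CCAAT (32.0% of all windows) or TATAAA (10.7% of all windows) on either strand. Across the family 15 windows of 7 genes were listed, and ATP2A3 and ATP2C2 had none in the table.

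Of the 18 pump probes, 7 were measured on both arrays, 1 on the siGFP array alone and 10 on neither, so that 6 of 9 genes were detected in at least 1 condition. ATP2B4 was the pump with the largest difference, ATP2C1 and ATP2A2 were moderately higher, and ATP2B1 and ATP2B3 showed no clear difference. Of the 8 compared probes, 1 (12.5%) was at least 2-fold higher and 1 (12.5%) at least 2-fold lower in #1 siHOTAIR-transfected cells, against 3.3% of all compared probes higher and 4.1% lower. The higher one is the ATP2B4 probe that the choice rests on, so nothing is read from its share. The lower one is an ATP2A1 probe too dim on the #1 siHOTAIR array for a 2-fold difference to be held. Among the 7 probes measured on both arrays, 6 had a log2 ratio above 0, with a median of 0.59 (ATP2B4 included), while 54.2% of all such probes were above 0. This set holds the chosen ATP2B4 probe and more than 1 probe of ATP2A2 and of ATP2B1, so nothing is read from this count or median either. The plot of the signals of every pump spot gives the values from which these counts were drawn.

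**Figure D1:**
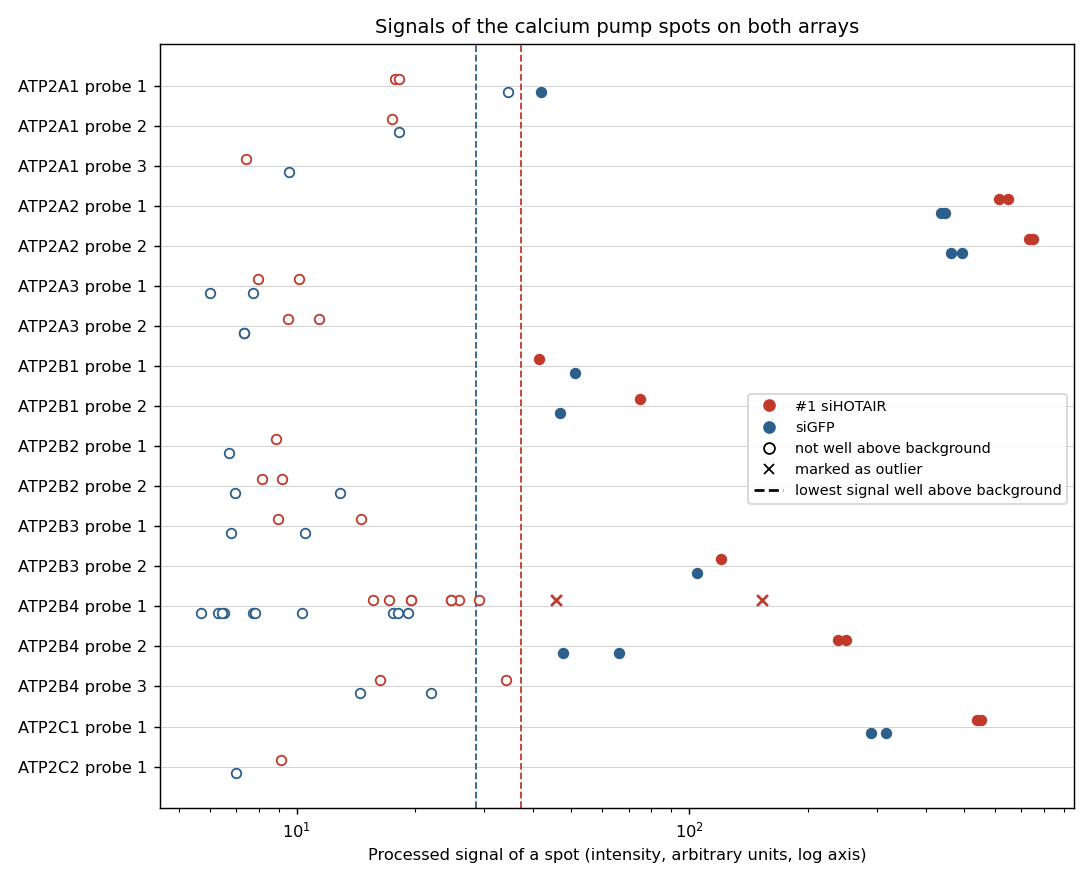
Processed signal of each spot (intensity in arbitrary units, log axis) for the 18 calcium pump probes in #1 siHOTAIR-transfected (red) and siGFP-transfected (blue) cells. Filled points are well above background, crosses are outlier spots and dashed lines mark the lowest signal well above background on each array (37.3 and 28.6); the bright probes are those of ATP2A2, ATP2C1, ATP2B4, ATP2B3 and ATP2B1.

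Among the plasma membrane pumps, ATP2B4 encodes PMCA4, a widely made pump that is abundant in red cells and needed for sperm motility. It had 3 probes. The brightest of these, A_24_P405205, had 1 spot with a signal of 239 in #1 siHOTAIR-transfected and 66.0 in siGFP-transfected cells, and another with 251 and 47.6. Both spots were higher in #1 siHOTAIR-transfected cells. The difference was 3.50-fold on one spot (log2 ratio 1.81) and 5.12-fold on the other (2.36), so only 1 of 2 spots passed 4-fold. The mean was 4.23-fold (log2 ratio 2.08, measurement SD 0.19). The log2 ratio was 1.26 with normexp background correction, which adds an offset of 50 to every signal, and 1.12 with no background correction. The probe thus passed 2-fold but not 4-fold under either. An added offset, or background left in, shrinks the ratios of dim signals. Before any background was subtracted, the median pixel signals were 362 and 336 against 169.5 and 141.5, with local backgrounds of 63 to 71. The processed signals of these spots were all lower than pixel signal minus local background. The size of the fold therefore also depends on how the software processed the signals.

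The spots of this probe lay far apart on the slide, in rows 129 and 345 of 384. Their log2 ratios differed by 0.55, against a median difference of 0.09 and a 95th percentile of 0.48 over the 4458 probes with 2 spots that were all measured, and 3.72% of these probes differed by more. Rows 1 to 144, a stretch known from earlier results of these data, made up 37.5% of the slide, whereas 77.5% of the 4-fold or larger rises of single spots, among spots well above background in 1 or both conditions, fell there. One ATP2B4 spot, that with the smaller difference, lay in these rows and the other did not. At least 2-fold higher signals on both spots were seen for 42 of 4458 probes (0.942%), ATP2B4 among them. By the mean of the spots, 3 of the 42 passed 4-fold, with NRP2 at 5.39-fold and MCPH1 at 4.14-fold on either side of ATP2B4, and the probe just below this limit was that of CKB at 3.99-fold. On both spots, NRP2 alone passed 4-fold. Of the probes measured on both arrays, 3529 lay within 0.5 of the ATP2B4 probe in mean log2 signal. Among these, 94 (2.66%) were at least 2-fold higher and 10 (0.283%) at least 4-fold higher. Probes measured on 1 array alone were not in this set.

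**Figure D2:**
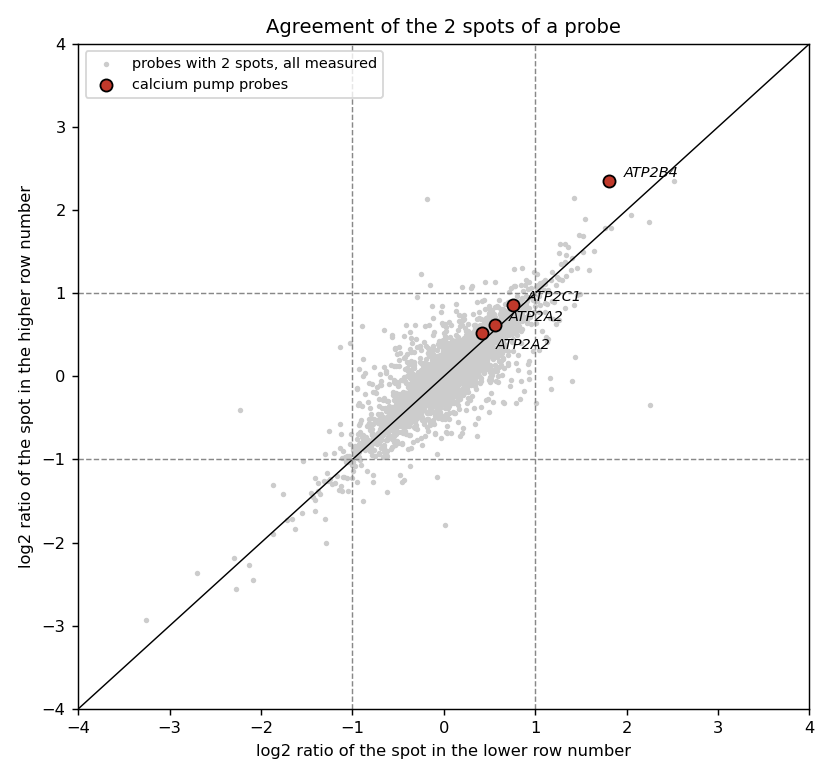
Log2 ratio (#1 siHOTAIR over siGFP) of the spot in the lower row against that in the higher row, for 4458 probes with 2 spots that were all well above background. The line marks equal values and dashed lines mark 2-fold; ATP2B4 lies at 1.81 and 2.36, and the probes of ATP2A2 and ATP2C1 lie near the line, above 0 and under 2-fold on both spots.

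The other ATP2B4 probes were not well above background on either array, and no fold is read from them. A_23_P11841, listed under another ATP2B4 transcript than the bright probe, had 10 spots. In #1 siHOTAIR-transfected cells 8 of these had a lowest, median and highest signal of 15.6, 22.1 and 29.1, and the 2 others, marked as outliers by the scanner software, had 45.6 and 153. In siGFP-transfected cells the lowest, median and highest of the 10 were 5.70, 7.78 and 19.2. All 10 spots were brighter on the #1 siHOTAIR array, although the signals of the arrays overlapped. Among 314 probes with 10 spots that were well above background on neither array, 85 were likewise brighter on all 10 spots, so that nothing is read from this count. The averaged log2 ratio of A_23_P11841 was 1.14, or 1.54 with the outlier spots kept. These 314 probes had a median of 0.32 and a 95th percentile of 0.53, and 1 of them was above 1.14. The probe is of the chosen gene and its signals were dim, so this place is a description only. A_33_P3327200, listed under the same transcript as the bright probe, had a spot with 34.0 against 14.5 and another with 16.3 against 22.0, which differed in direction.

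ATP2B1 encodes PMCA1, the housekeeping member of the plasma membrane pumps. Its 2 probes had 1 spot each and are listed under different transcripts. The signal was 74.7 against 46.7 on one (log2 ratio 0.63) and 41.3 against 51.2 on the other (-0.36), each with a measurement SD of 0.27. The probes moved in opposite directions, and no direction is given for the gene. ATP2B3 encodes PMCA3, a pump best known from brain. One of its probes gave 120 against 104 (log2 ratio 0.16, measurement SD 0.27), a difference under the measurement error, and the spots of the other, at 8.95 and 14.6 against 6.78 and 10.5, were not well above background. ATP2B2 encodes PMCA2, the pump of inner ear hair cells and certain neurons, and its 2 probes were well above background on neither array, with signals from 6.70 to 12.9.

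Of the endoplasmic reticulum pumps, ATP2A2 (SERCA2, the form of most cells and of heart muscle) was measured by 2 probes that did not share spots. The signals were 616 and 647 against 447 and 437 on one, and 750 and 733 against 493 and 463 on the other. Both spots of each probe were higher in #1 siHOTAIR-transfected cells. The log2 ratios were 0.47 and 0.59 (measurement SD 0.09 each), larger than the spread of repeated spots and under 2-fold. ATP2A1 encodes SERCA1, the pump of fast-twitch skeletal muscle. One of its 3 probes gave 17.8 and 18.2 with #1 siHOTAIR and 34.5 and 41.9 with siGFP. Of these 4 signals, 41.9 was well above background, and the difference against the lowest measurable level was at least 1.05-fold lower. ATP2A3 encodes SERCA3, made in blood cells and some epithelia, and its 2 probes were well above background on neither array, with signals up to 11.4.

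The secretory pathway pump ATP2C1 (SPCA1, mutated in Hailey-Hailey disease) gave 554 and 542 with #1 siHOTAIR and 318 and 289 with siGFP. Both spots were higher with #1 siHOTAIR. The difference was 1.75-fold (log2 ratio 0.81, measurement SD 0.09), the largest of the pumps after ATP2B4 among probes measured on both arrays. ATP2C2 (SPCA2, found in secretory epithelia such as the mammary gland) had 1 spot, with 9.14 against 6.996, and was measured on neither array.

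**Figure D3:**
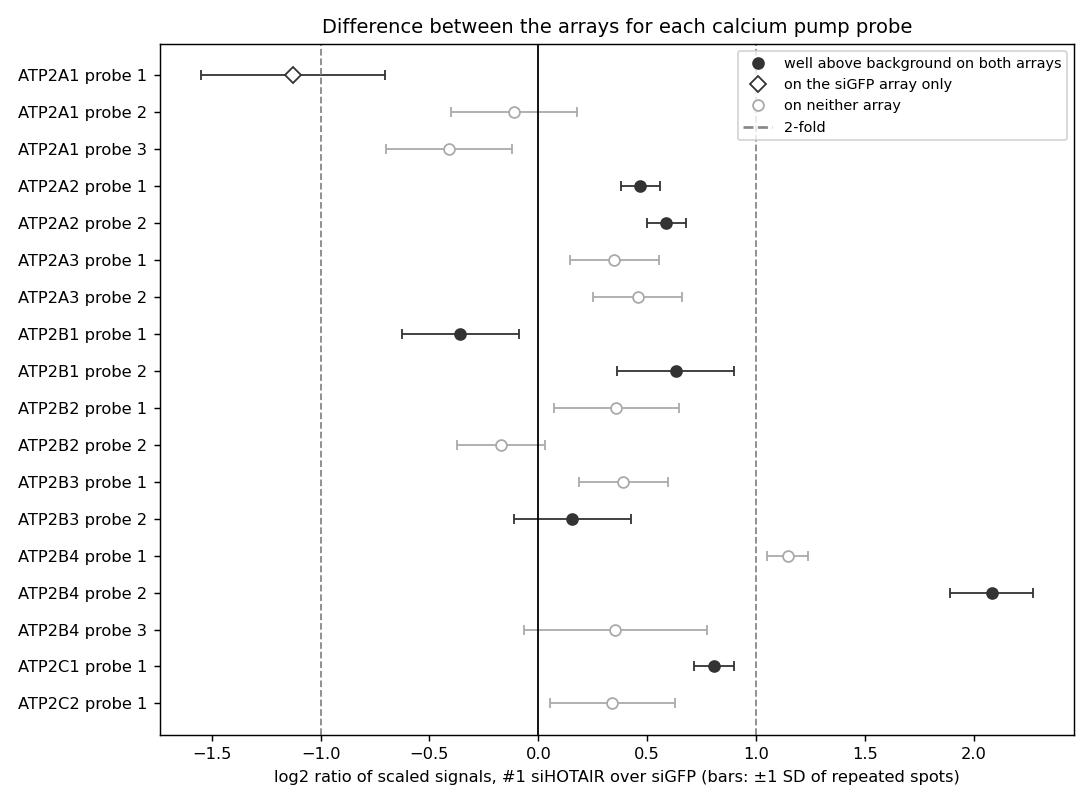
Log2 ratio of scaled signals (#1 siHOTAIR over siGFP) for each of the 18 calcium pump probes, with bars of 1 measurement SD of repeated spots. Filled points were well above background on both arrays; the bright ATP2B4 probe lies at 2.08, ATP2C1 at 0.81, the ATP2A2 probes at 0.47 and 0.59, and open points are too dim for a fold.

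**Figure D4:**
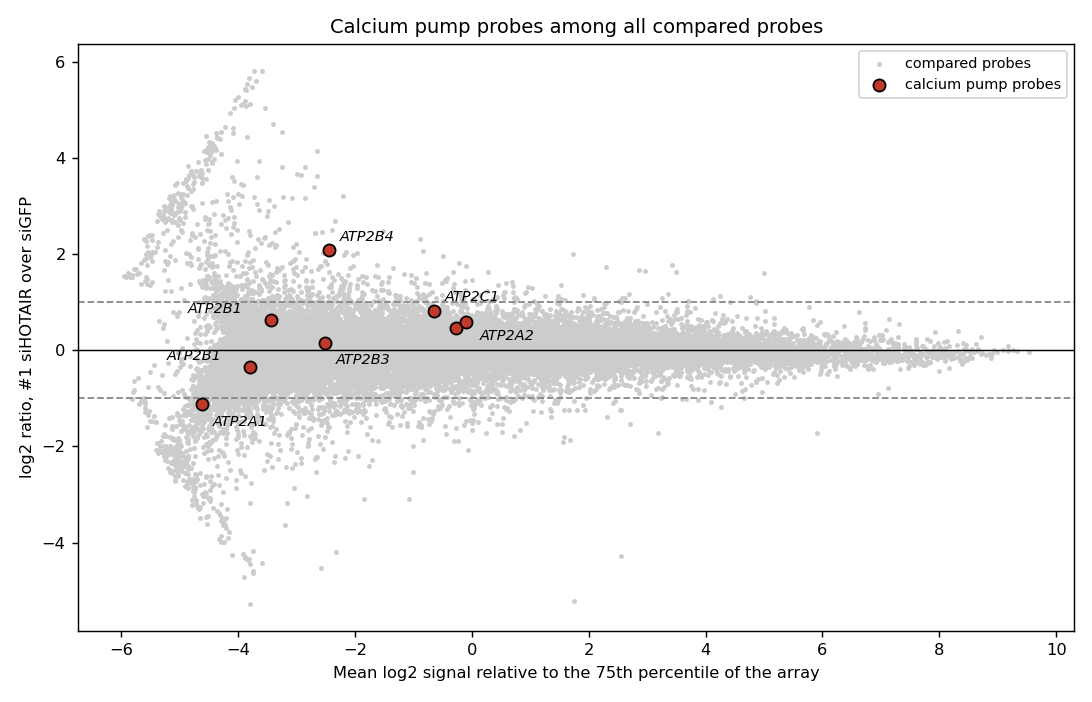
Log2 ratio against mean log2 signal relative to the 75th percentile of the array, for the 24117 compared probes (grey) and the 8 compared calcium pump probes (red); dashed lines mark 2-fold. The ATP2B4 probe lies above 2-fold, the ATP2A1 probe lies at the dim end, where grey points spread widest, and the 6 others lie within 2-fold.

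The genes that work with the pumps were taken as 8 lists with 94 genes, of which 91 had a named probe, 62 were compared and 57 were measured on both arrays, with the brightest probe standing for a gene. None of the 62 was at least 2-fold higher and 4 were at least 2-fold lower, against 354 (2.72%) and 441 (3.39%) of the 13005 genes compared. With dim signals at their bound 3 were lower, as SMDT1 was no longer among them. The median log2 ratio of the 62 was 0.09, beside 0.02 for all genes compared. Counts above 0 in each list are to be set beside the 54.2% of all probes measured on both arrays that lay above 0. These counts move with the scaling, and nothing is read from them. The highest log2 ratio among the list genes measured on both arrays was 0.86 (MCU), beside 2.08 for ATP2B4.

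Of the regulators and partners of the pumps, 7 of 11 were measured on both arrays, 4 of these with a log2 ratio above 0 (median 0.09, or -0.25 with the median of the probes of each gene). Sarcolipin (SLN), a small membrane peptide that inhibits SERCA, had 1 spot with 68.9 against 202 (log2 ratio -1.59). CALM2 and CALM3, which encode calmodulin, the protein that stimulates the plasma membrane pumps, had log2 ratios of -0.29 and 0.09, with -0.21 and 0.83 on a further probe of each. Basigin (BSG, -0.41) and neuroplastin (NPTN, 0.32) are subunits of the plasma membrane pumps.

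The channels that release calcium from the endoplasmic reticulum held the lower gene with the most spots. RYR2, the ryanodine receptor of heart and brain, had signals of 382 and 391 against 980 and 1064 on one probe and 130 against 322 on the other. All 3 spots were lower in #1 siHOTAIR-transfected cells, with log2 ratios of -1.45 and -1.35 for the probes. Among the inositol trisphosphate receptors, ITPR2 had a log2 ratio of 0.34 on one probe (105 against 80.7) and of -0.69 on the other (29.0 against 45.3), which point in opposite directions. ITPR3 had a log2 ratio of -0.58 (90.3 against 131), and ITPR1 was measured in control cells alone.

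Of the store-operated entry genes, 5 of 6 were measured on both arrays and 4 were above 0 (median 0.26). They ran from SARAF, an inhibitor of this entry (-0.27), to the channel gene ORAI2 (0.47), and the store sensors STIM1 and STIM2 had 0.26 and 0.44. Of the calcium-binding proteins of the endoplasmic reticulum, 12 of 15 were measured on both arrays and 10 were above 0 (median 0.18), from NUCB2 (-0.12) to the chaperone HSPA5 (0.49). Of the mitochondrial uptake genes, 7 of 8 were measured on both arrays (median 0.10). Their highest was MCU, the pore of the uniporter, with 1 spot of 124 against 66.5 (log2 ratio 0.86), and their lowest was MCUB (-0.11). SMDT1, a further subunit of the uniporter and 1 of the 4 lower genes, had 8.43 against 33.6 and was measured in control cells alone at under the lowest measurable signal of the other array, so that no fold can be given.

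Of the sodium-calcium exchangers, some of which share the task of expelling calcium with the plasma membrane pumps, 2 of 9 were measured on both arrays, SLC8B1 (0.16) and SLC8A1 (-0.14). Of calcineurin and NFAT, the phosphatase pathway that PMCA4 is known to restrain by binding calcineurin, 7 of 12 genes were measured on both arrays and 6 were above 0 (median 0.14). The highest was the calcineurin regulator RCAN1, with signals of 372 and 414 against 200 and 225 (log2 ratio 0.84), and the lowest was PPP3CB (-0.32). Of the other P-type ATPases, which carry sodium, copper or lipids, 14 of 27 were measured on both arrays and 6 were above 0 (median -0.06). The median of the 15 compared was -0.03, and its sign turned with scaling to the spike-in RNA (0.11), without scaling (0.01) and with no filter on dim probes (0.26). The lipid flippase ATP8A1 was lower, with 1 spot of 112 against 327 (log2 ratio -1.59), and the highest was ATP11B (0.55).

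**Figure D5:**
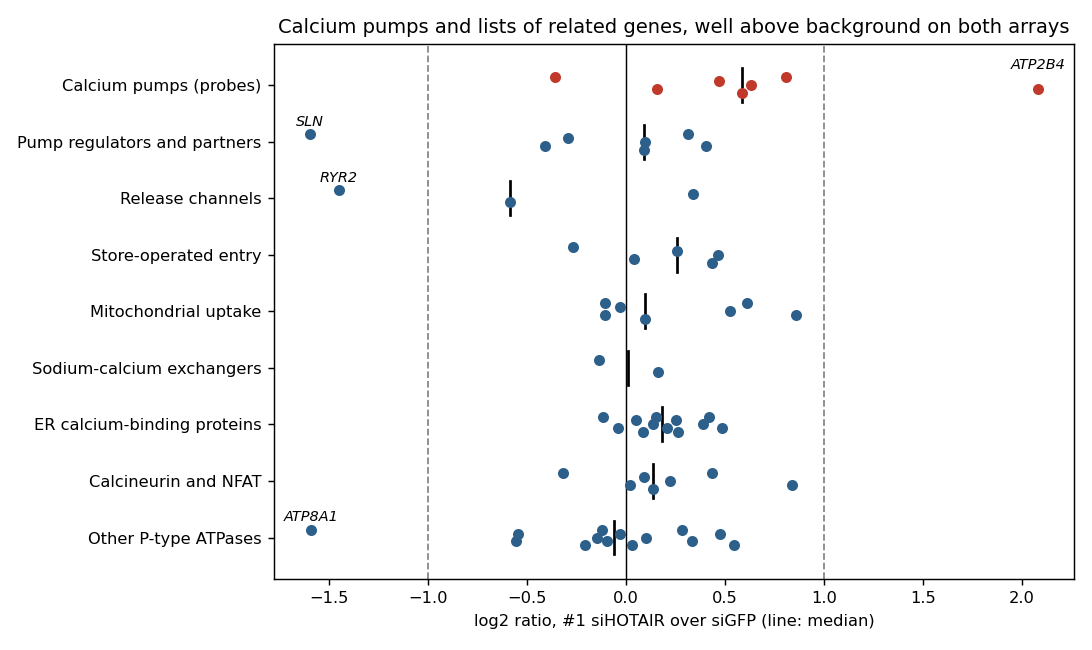
Log2 ratio (#1 siHOTAIR over siGFP) of the 7 calcium pump probes (red) and the 57 related genes (blue) that were well above background on both arrays, with a line at the median of each row and dashed lines at 2-fold. ATP2B4 lies above 2-fold, and SLN, RYR2 and ATP8A1 lie below.

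The genes next to ATP2B4 on chromosome 1 were set beside it. Of the 3 nearest on either side, ZC3H11A, a zinc finger gene, was measured on both arrays by 4 probes, with log2 ratios from -0.25 to 0.04. OPTC (10.8 against 8.80) and LAX1 (15.1 against 7.26) were well above background on neither array, and ZBED6, LOC105371688 and LOC124904488 had no named probe, nor did the 4 genes that overlap ATP2B4. The 5 genes nearest to ATP2B4 in log2 ratio, among probes with 2 spots that were all measured, were MCPH1 (2.05), CKB (2.00), OPA3 (1.81), DNMT3B (1.79) and VGF (1.78), a likeness that rests on 1 difference between 2 arrays.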

How the data were processed

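Gene expression was measured in 2 samples on one-colour Agilent 8 × 60K arrays, 1 per condition, grouped by their labels. Per the labels, the authors labelled the RNA with Cy3 and extracted the spots with Agilent Feature Extraction 10.10.1.1. Processed signals were deposited as an intensity, with the background subtracted and no normalization between arrays. The deposited value table, also an intensity, equals the background-subtracted signal (largest difference 0).

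From there, log2 signals were set against the 75th percentile of each array over the 58717 non-control spots. Outlier spots (393 and 375) were left out and the spots of a probe averaged. Probes well above background were 52.1% and 55.3%, which sets the precision, and 0 spots were saturated. Where 1 array measured a probe, the difference was bounded by the lowest signal well above background on the other (37.3 and 28.6). Names came from the RefSeq table of GRCh38.p14 (58.5% of probes). Python 3.11.15, pandas 2.3.3, R 4.3.3 and limma 3.58.1 (normexp with an offset of 50) were used. The calls were run on simulated data that held a set difference and the error of repeated spots alone. These simulated data had no spread between cultures or arrays, so they say nothing about the differences given here. The members and lists were chosen with earlier results of these data known. Named were all pumps, HOTAIR, markers, the genes of each list changed at least 2-fold with its highest and lowest, the 3 nearest genes on each side of ATP2B4 and the 5 nearest in log2 ratio. Other list genes, NRP2 and the pixel signals were added after values were seen. The values of 3 list or marker genes are not reported here. Alternatives concerned scaling, background, filter, threshold, spots, probes, dim signals and outlier spots.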

Additional observations from a re-analysis of the deposited data

How the results depend on the processing

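The ATP2B4 log2 ratio was 2.08. It fell to 1.26 with normexp background correction (offset of 50) and to 1.12 with no background correction, and was 1.81 and 2.36 with either spot alone. It stayed at least 2-fold higher under every setting run. All settings reuse the same spots, and those for the filter, dim signals and outlier spots could not change this ratio. The chosen difference therefore gains no support from them. HOTAIR was at -1.09 with scaling to the spike-in RNA, -0.76 with normexp and -0.73 with no background correction. Scaling to the 244 spike-in spots raised all log2 ratios by 0.14. The other pump probes measured on both arrays kept their sign in 72 of 72 values. Settings for the filter, the bound of dim signals and outlier spots left these ratios unchanged, so that part of the agreement was fixed in advance. Sizes changed to different degrees. With normexp, 1 ATP2B1 probe went from 0.63 to 0.20 and ATP2B3 from 0.16 to 0.02, while ATP2C1 went from 0.81 to 0.71. The added offset shrinks the ratios of dim signals most. Pump probes at least 2-fold higher numbered 2 with no filter and 4 at 1.5-fold. The 1 lower probe (ATP2A1) was lost, leaving 0, with spike-in scaling, normexp, no background correction, every spot required, dim signals at their bound and a threshold of 3-fold. Over all compared probes, those higher numbered 227 with normexp, 173 with no background correction, 313 with every spot required, 1933 with no filter, 2050 at 1.5-fold and 377 at 3-fold, in place of 795. Those lower numbered 187, 154, 317, 1866, 2348 and 411 under the same settings and 498 with dim signals at their bound, in place of 989. List genes higher numbered 3 with no filter and 4 at 1.5-fold, and those lower 2 with no background correction. List medians kept their sign in 88 of 96 values. Of the others, 4 were of the exchangers, 3 of the other P-type ATPases and 1 of the pump regulators. Signal over background was too low for 10 of 18 pump probes to be measured on either array. No paired analysis was possible because each condition had 1 array. Leaving out a replicate was not possible either.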
